A study of Mus musculus with 12 samples.

Results

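Fc receptors and Fc receptor-like genes were followed across sorted mouse B cells on 12 arrays. The set holds 9 genes, namely Fcer1g, Fcgr1, Fcgr2b, Fcgr3, Fcgr4, Fcrl1, Fcrl5, Fcrla and Fcrlb, chosen by name, with earlier results of these data known. A gene was measured through each probe set whose only gene symbol is that gene. This gave 15 probe sets for 7 of the genes, out of 45037 probe sets and 18193 genes in all, and no probe set was named for Fcrl5 or Fcrlb, which are not analysed here. Every sample was taken from female C57BL/6 animals by flow cytometric sorting, with no culture step. Those called age-associated (ABC) and those called follicular (FO) came from the spleen of mice older than 15 months. B1 cells, which the titles call B1a, came from the peritoneal cavity of mice older than 15 months (old B1) and of mice of 8 weeks (young B1). Each of the 4 groups holds 3 arrays. The labels do not name the surface markers of the sort, and they do not say whether the 3 replicates of a group are separate mice or pools.

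Fc receptors bind the constant part of antibodies and so tell a cell that antigen has been captured by antibody. The activating receptors for IgG (Fcgr1, Fcgr3 and Fcgr4) are chiefly receptors of myeloid and natural killer cells, and they need the gamma chain encoded by Fcer1g to reach the surface and to signal through its activation motif. Fcgr2b encodes the inhibitory IgG receptor, which carries an inhibitory motif, is the main IgG receptor of B cells and dampens the B cell receptor when both are engaged by an immune complex. The Fc receptor-like proteins are their relatives in B cells: Fcrl1 is a surface protein with activation-type motifs, and Fcrla stays inside the cell.

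The values are intensities on a linear scale, and differences are log2 values, where ± is the standard error from limma with 3 arrays a group. A gene was called at an adjusted p under 0.05, over all 18193 genes of a comparison. The 75th percentile of intensity was 346 on old B1 replicate 3 and 378 on old FO replicate 2, against 400.1 to 412 on the other 10 arrays. Old B1 replicate 3 also correlated best with a young B1 array (r = 0.961 over all genes), while each of the other 11 arrays correlated best with an array of its own group (r from 0.988 to 0.997). For the measured Fc receptor genes, called differences of old B1 are also given without old B1 replicate 3. The differences given for genes of other lists rest on all arrays. Of 9 B cell markers most were bright in all groups. Cd79b, a chain of the B cell receptor complex, lay between 11616 and 12851, and the sum of the 9 between 56190.0 and 64352. Pax5 was dim, at a mean log2 level of 5.05 in old B1. On every old B1 array 1 of the 9 lay under the median intensity. By limma 1 was lower in ABC than in FO, and 2 were higher in ABC than in old B1. Against FO, old B1 had 3 lower and 1 higher, and 0 were called between old and young B1. Cd22 alone kept its calls in all 13 fits that left out arrays. It differed by 0.75 between ABC and old B1 and by -0.59 between old B1 and FO. Markers of other cells were present too. The summed intensity of 17 macrophage markers was 16527 to 18614 in ABC, 1259 to 3215 in FO, 18148 to 41091 in old B1 and 20912 to 35052 in young B1. The sum of 11 neutrophil markers was 20884 to 35658 in ABC, 489 to 10046 in FO, 232 to 452 in old B1 and 397 to 1545 in young B1. In these bulk samples, fewer cells of a type and less RNA per cell cannot be told apart.

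By the RefSeq gene table, 6 of the 9 genes lie on chromosome 1 and 3 on chromosome 3. Fcrlb, Fcrla, Fcgr2b, Fcgr4, Fcgr3 and Fcer1g follow each other there in this order, with no other coding gene between Fcgr2b, Fcgr4 and Fcgr3. The windows of 250 bases upstream of the start are shown for 3 genes of chromosome 1 that were all higher in ABC and B1 than in FO cells, and for Fcrl1, which was lower in both. Sequences are those of RefSeq on GRCm38.p6, written 5′ to 3′ on the gene's strand, and capitals mark the letters GAGGAA, the core of a site for the myeloid and B cell factor PU.1, or their reverse complement.
Fcer1g chr1:171234350-171234599, minus strand: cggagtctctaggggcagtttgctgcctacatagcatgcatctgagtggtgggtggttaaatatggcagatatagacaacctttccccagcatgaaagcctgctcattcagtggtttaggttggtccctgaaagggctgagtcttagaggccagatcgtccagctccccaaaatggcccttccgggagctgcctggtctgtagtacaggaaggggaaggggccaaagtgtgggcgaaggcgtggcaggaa
Fcgr3 chr1:171059404-171059653, minus strand: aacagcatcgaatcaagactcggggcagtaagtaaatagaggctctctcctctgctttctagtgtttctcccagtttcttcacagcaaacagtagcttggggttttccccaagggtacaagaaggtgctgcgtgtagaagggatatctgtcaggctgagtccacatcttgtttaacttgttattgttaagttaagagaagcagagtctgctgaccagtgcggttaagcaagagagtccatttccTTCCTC
Fcgr4 chr1:171018676-171018925, plus strand: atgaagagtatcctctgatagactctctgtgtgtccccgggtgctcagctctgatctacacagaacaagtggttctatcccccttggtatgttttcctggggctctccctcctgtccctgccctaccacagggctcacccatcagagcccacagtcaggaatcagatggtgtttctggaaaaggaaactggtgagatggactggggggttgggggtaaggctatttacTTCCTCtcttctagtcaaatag
Fcrl1 chr3:87376137-87376386, plus strand: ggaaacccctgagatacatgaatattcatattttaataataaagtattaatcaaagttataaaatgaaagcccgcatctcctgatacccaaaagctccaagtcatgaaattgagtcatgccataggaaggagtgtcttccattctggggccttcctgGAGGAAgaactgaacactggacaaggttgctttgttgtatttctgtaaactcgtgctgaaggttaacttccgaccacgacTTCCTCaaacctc
The core was found once before Fcgr3, in the 6 bases next to the start, once before Fcgr4, at 22 to 17 bases before it, and 2 times before Fcrl1, at 93 to 88 and at 13 to 8 bases before it. Of the 9 genes 6 have it in this window, Fcgr1, Fcrla and Fcrlb being the others, and it was not found before Fcer1g, Fcgr2b or Fcrl5. Of 27025 promoter windows of this length 23.1% hold it. Neither the T-box half-site GGTGTGA (3.31% of windows) nor the palindromic site of the B cell factor EBF (0.788%) was found in the windows of the 9 genes on either strand.

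The first comparison, ABC against FO, holds organ and age constant and sets ABC beside the follicular cell, the common resting B cell of the spleen. All 4 genes of the activating receptors were higher in ABC, led by the gamma chain Fcer1g at 25.5-fold, with Fcgr4 at 7.26-fold, Fcgr3 at 5.76-fold and Fcgr1 at 3.96-fold. The inhibitory receptor Fcgr2b was 1.78-fold higher. Fcrl1 was 1.77-fold lower in ABC, and Fcrla did not pass the test. In total 6 of 7 measured genes were called, 5 higher and 1 lower, against 9.96% of all genes tested (7.12% higher and 2.84% lower). On 6 of the 7 the ABC and FO arrays did not overlap, against 28.8% of all genes. The 7 genes had a median difference of 1.99, against -0.033 for all genes. Without the 2 arrays that stand apart 6 were called as well.

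**Figure D1:**
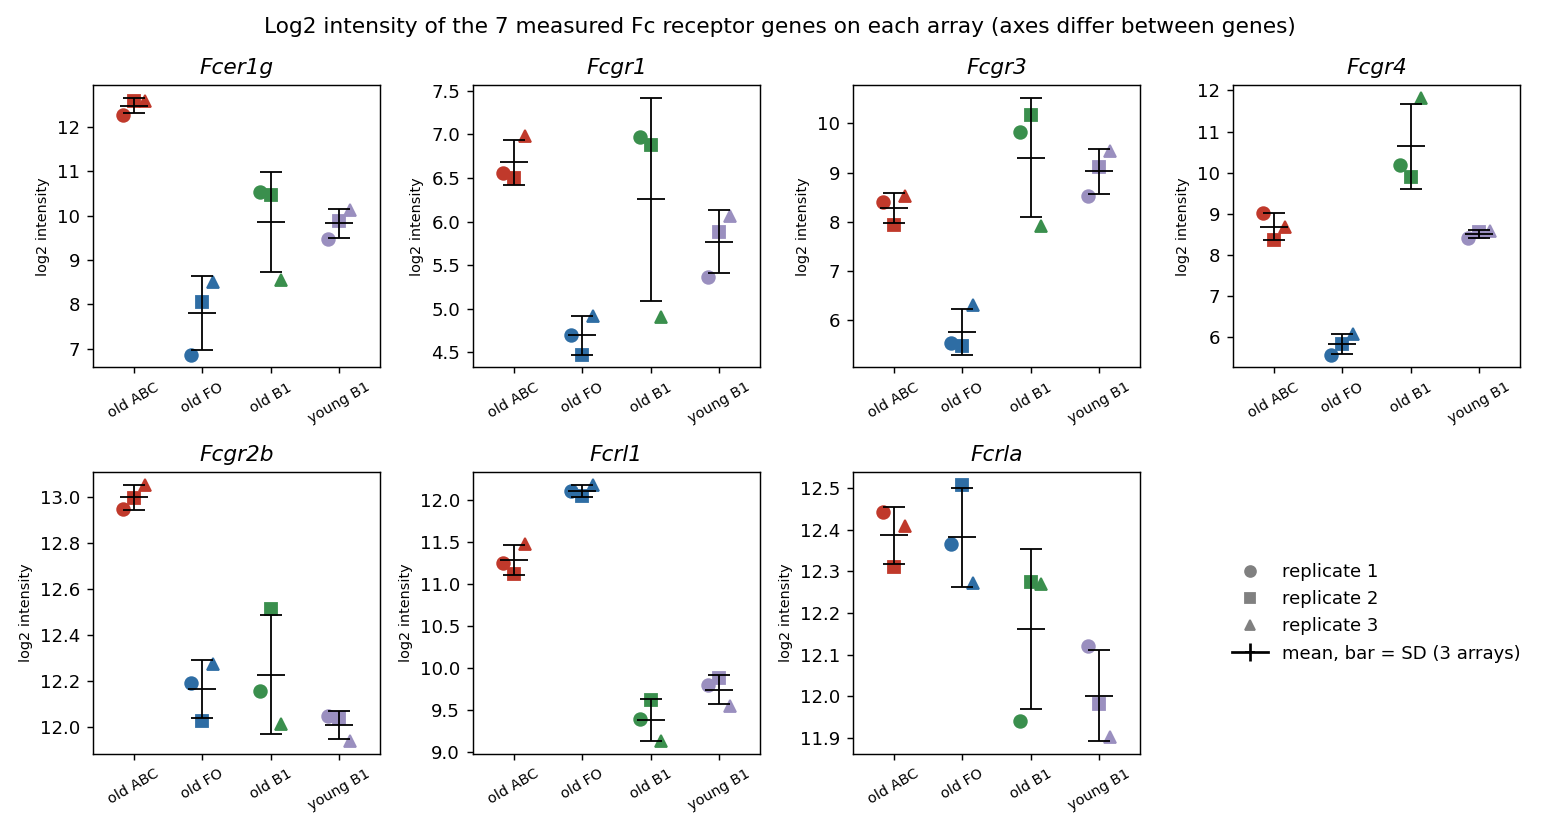
Log2 intensity (vertical axes, which differ between genes) of the 7 measured genes on each array in the 4 groups on the horizontal axes; points are arrays, long marks the mean and bars the SD over 3 arrays. ABC stand highest for Fcer1g and Fcgr2b, FO lowest for Fcer1g, Fcgr3 and Fcgr4 and highest for Fcrl1, and old B1 replicate 3 (triangle) lies apart from replicates 1 and 2 for Fcer1g, Fcgr1, Fcgr3 and Fcgr4.

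Fcer1g, the signalling chain, had intensities of 4949, 6142 and 6081 on the ABC arrays. On the FO arrays they were 117, 266 and 361, on old B1 1486, 1410.1 and 376, and on young B1 711, 936 and 1119. The ABC arrays lay above all others and FO below all others, while the old and young B1 ranges overlapped. The difference between ABC and FO was 4.67 ± 0.53 (adjusted p = 0.00024). ABC exceeded old B1 by 2.63 ± 0.53 (6.17-fold, adjusted p = 0.0078), or by 1.98 without old B1 replicate 3 (adjusted p = 0.0057). Old B1 exceeded FO by 2.05 ± 0.53 (4.13-fold, adjusted p = 0.0229). That call was lost without FO replicate 1 (adjusted p = 0.0893), without old B1 replicate 1 (0.0762) or without old B1 replicate 2 (0.0733), and in the fit of the 2 groups alone (0.145), whereas without old B1 replicate 3 the difference was 2.69 (adjusted p = 6.2e-04).

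Fcgr3 encodes the low-affinity activating IgG receptor CD16. Its intensities were 337, 246 and 369 on the ABC arrays, 46.0, 44.1 and 78.6 on FO, 904, 1162 and 242 on old B1, and 369, 557 and 694 on young B1. The FO arrays were below all others, and the ranges of the old and young B1 arrays overlapped, old B1 replicate 3 being the lowest of the 9 arrays outside FO. ABC exceeded FO by 2.53 ± 0.51 (adjusted p = 0.00988) and old B1 exceeded FO by 3.55 ± 0.51 (11.7-fold, adjusted p = 8.5e-04), the latter being 4.24 (18.9-fold, adjusted p = 8.2e-06) without old B1 replicate 3. Between ABC and old B1 the difference was -1.02 ± 0.51 and was not called (adjusted p = 0.249), with a 95% interval from -2.16 to 0.12. Without old B1 replicate 3 it was -1.71 and called (adjusted p = 0.00407).

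Fcgr4 encodes an activating receptor for IgG2a and IgG2b. It read 519.6, 328 and 409 on the ABC arrays, 47.4, 57.0 and 67.5 on FO, 1163, 957 and 3620.1 on old B1, and 338, 376 and 383 on young B1. The old B1 arrays were above all others and FO below all others, with ABC and young B1 overlapping. The difference between ABC and FO was 2.86 ± 0.41 (adjusted p = 0.0012) and that between old B1 and FO was 4.81 ± 0.41 (28.1-fold, adjusted p = 2.3e-05). Without old B1 replicate 3 the latter was 4.22 (18.6-fold, adjusted p = 6.35e-07). ABC were lower than old B1 by a log2 difference of -1.95 ± 0.41 (3.87-fold, adjusted p = 0.00977), or -1.36 without old B1 replicate 3 (adjusted p = 0.0011). A fit of these 2 groups alone did not call it (adjusted p = 0.1).

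Fcgr1, the high-affinity IgG receptor CD64, was dim. Its brighter probe set read 94.1, 90.8 and 126 on the ABC arrays, 25.9, 22.2 and 30.2 on FO, 125, 118 and 30.02 on old B1, and 41.1, 58.7 and 66.9 on young B1. The FO arrays lay between the 36.5th and 43.6th percentile of all probe sets. ABC exceeded FO by 1.99 ± 0.46 with no overlap (adjusted p = 0.0201). It was no longer called when ABC replicate 1 was dropped (adjusted p = 0.053), nor on dropping ABC replicate 3 (0.0772), replicate 1 of FO (0.0637) or replicate 2 of FO (0.0681), nor in the mean of both probe sets (1.16, adjusted p = 0.0696). Old B1 exceeded FO by 1.56 ± 0.46 (adjusted p = 0.0426), but the ranges overlapped, since old B1 replicate 3 was at the level of FO. Leaving out any single array other than old B1 replicate 3 ended that call (adjusted p up to 0.129). So did the fit of the 2 groups alone (0.185), the replicate block (0.0821), the mean of both probe sets (0.0643) and the test of every probe set (0.0562). Without replicate 3 the difference was 2.23 (adjusted p = 5.1e-05). Between ABC and old B1 the difference was 0.43 ± 0.46 (adjusted p = 0.61, 95% interval -0.60 to 1.45). The dimmer probe set was not called by limma when every probe set was tested. It gave 0.33 between ABC and FO (adjusted p = 0.699), 0.57 between old B1 and FO (0.281) and -0.24 between ABC and old B1 (0.687).

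Fcgr2b, the inhibitory receptor, read 7878, 8160.2 and 8493 on the ABC arrays with its brightest probe set. On FO it read 4681, 4172 and 4955, on old B1 4566, 5846 and 4130.2, and on young B1 4233, 4211 and 3925. The ABC arrays stood above all 9 others, and the ranges of the other neighbouring groups overlapped. ABC exceeded FO by 0.83 ± 0.13 (adjusted p = 0.00207) and old B1 by 0.77 ± 0.13 (1.70-fold, adjusted p = 0.00291), or by 0.66 without old B1 replicate 3 (adjusted p = 0.00473). Old B1 and FO differed by 0.063 ± 0.13, with a 95% interval from -0.23 to 0.35 (adjusted p = 0.806). Of its 5 probe sets, 4 are bright and each was called higher in ABC than in FO when every probe set was tested, by 0.83, 1.17, 1.37 and 1.75. Against old B1 the same 4 probe sets gave 0.77, 1.06, 1.25 and 1.48, and each was called. The smallest difference was that of the brightest probe set, which represents the gene here. The other probe set read 3.93 to 6.23 on all arrays, within the lowest 5.79% of probe sets on each array, and was not called.

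Fcrl1, the surface receptor-like protein of B cells, followed another order. It read 2442, 2230.3 and 2859.5 on the ABC arrays, 4398, 4221 and 4656 on FO, 673, 786 and 558 on old B1, and 892, 939 and 747 on young B1. FO lay above ABC and ABC above both B1 groups without overlap, while old and young B1 overlapped. ABC were lower than FO by a log2 difference of -0.82 ± 0.15 (adjusted p = 0.00507). They were higher than old B1 by 1.91 ± 0.15 (3.75-fold, adjusted p = 2.2e-05), and old B1 were lower than FO by a log2 difference of -2.73 ± 0.15 (6.64-fold, adjusted p = 1.4e-06). Without old B1 replicate 3 these were 1.78 and -2.60. The dimmer probe set of the gene gave -1.09 between ABC and FO, 2.28 between ABC and old B1 and -3.37 between old B1 and FO, all called when every probe set was tested.

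Fcrla, the intracellular relative, was nearly level. Its brightest probe set read 5562, 5078 and 5434 on ABC, 5275, 5823 and 4945 on FO, 3928, 4952 and 4938 on old B1, and 4453, 4044 and 3830.5 on young B1. Each group overlapped with its neighbour in the order of means, though the ABC arrays all lay above the old B1 arrays. ABC and FO differed by 0.005 ± 0.12 (adjusted p = 0.993), with a 95% interval from -0.26 to 0.27. ABC and old B1 differed by 0.23 ± 0.12 (adjusted p = 0.273), and old B1 and FO by -0.22 ± 0.12 (adjusted p = 0.263). None of its 3 probe sets was called in any comparison by limma.

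**Figure D2:**
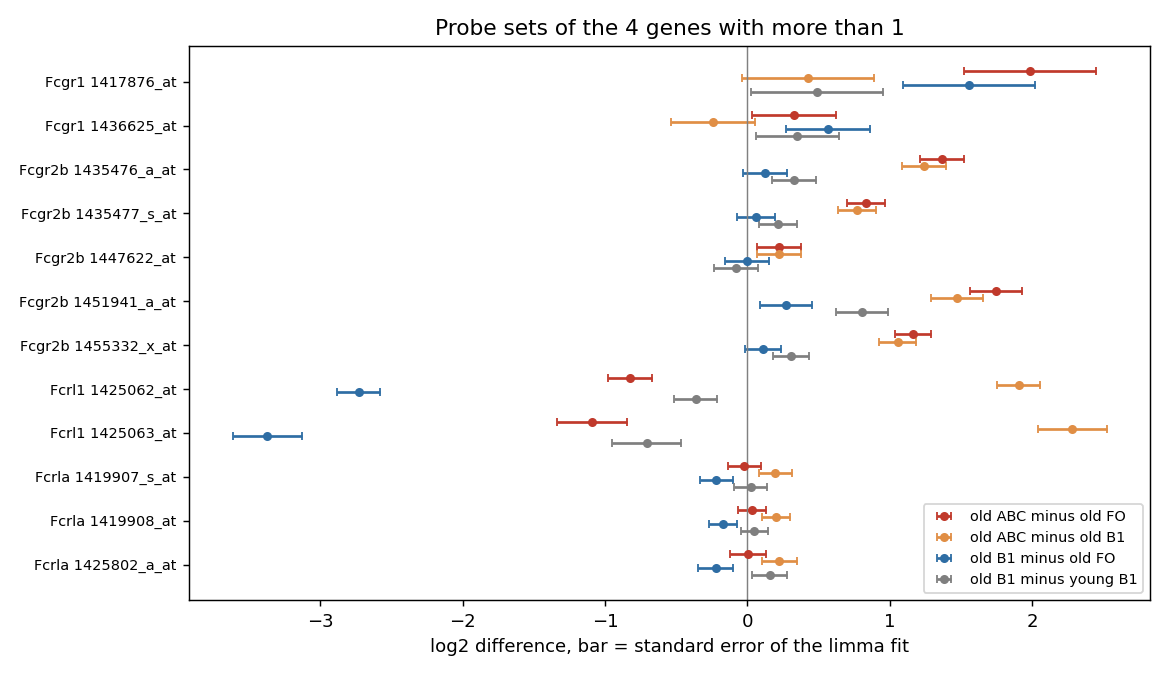
Log2 difference in each comparison (horizontal axis; points are the estimate and bars the standard error of the limma fit) for the 12 probe sets of Fcgr1, Fcgr2b, Fcrl1 and Fcrla. The 4 bright probe sets of Fcgr2b lie between 0.77 and 1.75 in both comparisons of ABC, those of Fcrl1 between -2.73 and -3.37 for old B1 minus FO, and those of Fcrla near 0.

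ABC and old B1 share their age, but they differ in both organ and cell type. Fcer1g, Fcgr2b and Fcrl1 were higher in ABC, and Fcgr4 was lower. So 4 of 7 genes were called, 3 higher and 1 lower, against 12.8% of all genes tested (7.4% higher and 5.43% lower), and without old B1 replicate 3 5 were called. The arrays of 5 genes did not overlap, against 28.8% of all genes. The 7 genes had a median difference of 0.43, against 0.016 for all genes. For old B1 against old FO cells, where cell type and organ again differ together, 5 of 7 were called, 4 higher and 1 lower, against 16.4% of all genes (8.4% higher and 8.02% lower), with a median of 1.56 against -0.038. There 4 genes had arrays that did not overlap, against 28.9% of all genes. These comparisons share arrays with each other and with ABC against FO.

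**Figure D3:**
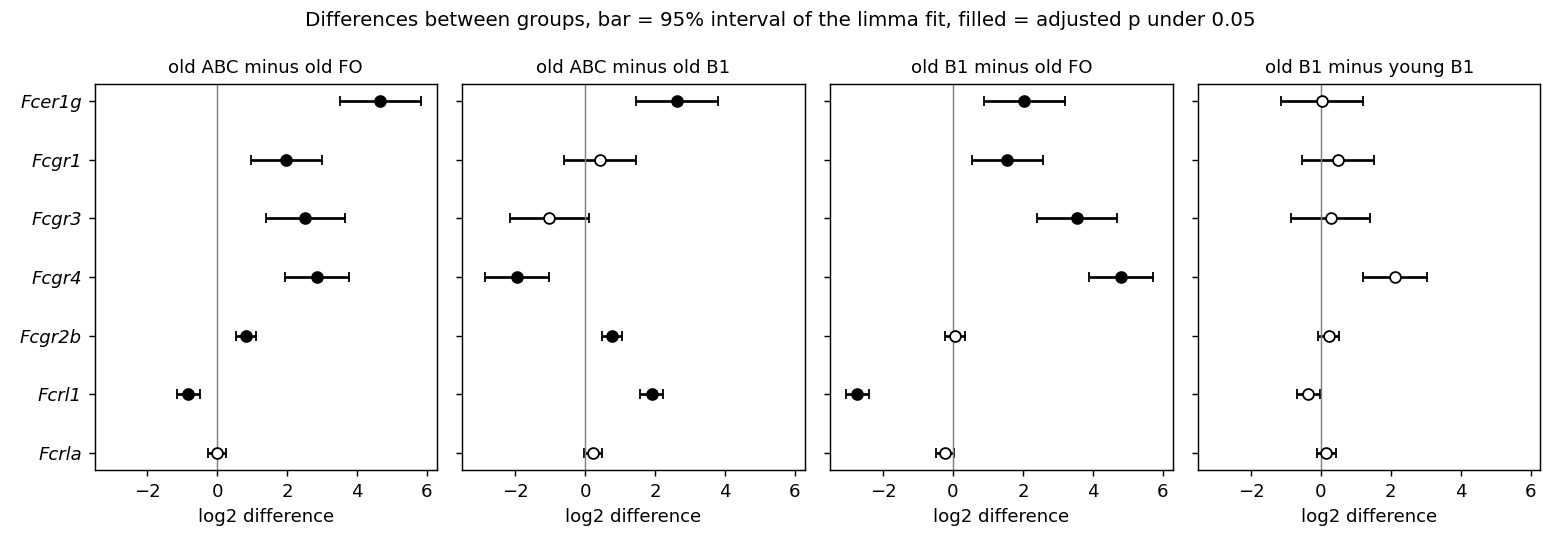
Log2 difference (horizontal axes) of the 7 measured genes in the 4 comparisons; points are the estimate, bars its 95% interval, and filled points have an adjusted p under 0.05. Fcer1g is higher in ABC than in old B1 (2.63) where Fcgr4 is lower (-1.95), and Fcrl1 runs against the other called genes in old B1 minus FO (-2.73).

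The gamma chain was also set against single receptors, array by array. The log2 intensity of Fcer1g minus that of Fcgr3 was 4.19 ± 0.40 (SD, n = 3) in ABC, 2.04 ± 0.64 in FO, 0.54 ± 0.23 in old B1 and 0.79 ± 0.13 in young B1. In this quantity the mean of ABC lay 3.65 above old B1 (3.69 without old B1 replicate 3) and 2.14 above FO, and the arrays did not overlap. For Fcer1g minus Fcgr4, old B1 had 0.35, 0.56 and -3.27 on its 3 arrays (SD 2.15). The mean of ABC lay 4.58 above old B1, or 3.33 without old B1 replicate 3, and 1.81 above FO. For Fcer1g minus Fcgr2b, the activating chain set against the inhibitory receptor, the mean of ABC lay 3.84 above FO and 1.86 above old B1, or 1.31 without old B1 replicate 3. The values without that array were added after the data were seen. Each of these 6 differences had a two-sided exact permutation p = 0.1, the smallest that 3 arrays against 3 allow (adjusted p = 0.16 over the 16 comparisons of this kind), so none could pass a threshold of 0.05.

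Old against young B1 cells asks what age changes within B1 cells. By limma 0 of 7 genes were called, against 0.291% of all genes tested, and 2 had an unadjusted p under 0.05, Fcgr4 (3.6e-04) and Fcrl1 (0.0345). Fcgr4 was the only one whose groups did not overlap, against 13.9% of all genes. It differed by 2.12 ± 0.41 (4.36-fold, adjusted p = 0.0874, 95% interval 1.22 to 3.03), higher in 3 of 3 old arrays. With array weights it was called at 1.58 (adjusted p = 0.00346), without old B1 replicate 3 at 1.53 (adjusted p = 0.0069) and without old B1 replicate 2 at 2.49 (adjusted p = 0.0409). In 10 of the 12 fits with 1 array left out it was not called (adjusted p up to 0.335). Nor was it called in 11 of the 13 other alternatives (adjusted p up to 0.473). Fcgr1 differed by 0.49 ± 0.46 (adjusted p = 0.754), and without old B1 replicate 3 by 1.16 (adjusted p = 0.0436). The 95% intervals of the other genes ran from -1.14 to 1.19 for Fcer1g, -0.86 to 1.41 for Fcgr3, -0.070 to 0.51 for Fcgr2b, -0.69 to -0.032 for Fcrl1 and -0.10 to 0.42 for Fcrla.

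Markers of macrophages, neutrophils and mast cells differed between the groups, each list in its own way. To set beside the counts of this and the later lists, 9.96% of all genes were called in ABC against FO. The shares were 12.8% in ABC against old B1 and 16.4% in old B1 against FO. Of 17 measured macrophage markers, 11 were called higher in ABC than in FO and 17 higher in old B1 than in FO, and between ABC and old B1 1 was higher in ABC and 4 lower. Of 11 neutrophil markers, 7 were higher in ABC than in FO, 10 higher in ABC than in old B1 and 0 called by limma between old B1 and FO (6 at an unadjusted p under 0.05, median -1.62). Among 9 mast cell markers, 3 were higher in ABC than in FO, 6 higher in old B1 than in FO and 4 lower in ABC than in old B1. The 3 were Cpa3 and the IgE receptor chains Fcer1a and Ms4a2. Not called there were the proteases Cma1 (0.40 ± 0.65, adjusted p = 0.839), Mcpt4 (0.71 ± 0.68, 0.661) and Tpsb2 (0.16 ± 0.52, 0.927). Nor were Kit (1.49 ± 0.57, 0.16), Hdc (1.63 ± 0.60, 0.14) and Gata2 (1.19 ± 0.38, 0.0865). Cpa3, a mast cell protease, lost its call in 5 of 13 fits that left out arrays for ABC against FO (adjusted p up to 0.128) and in 6 for ABC against old B1 (up to 0.108). Those 5 were the fits without ABC replicate 1 or 2 or any 1 of the FO arrays, and those 6 the fits without ABC replicate 2 or 3, FO replicate 1 or 3, or old B1 replicate 1 or 2. Lyz2, the lysozyme of myeloid cells, ran from 3163 to 5460.1 in ABC, 261 to 1047 in FO, 4992 to 11692 in old B1 and 7467 to 10214 in young B1. C1qb, a complement subunit made by macrophages, ran from 2901 to 3044 in ABC, 128 to 740.0 in FO, 2013 to 7333 in old B1 and 3405 to 7172 in young B1. S100a9 and S100a8, calcium-binding proteins of neutrophils, were 10396 to 13337 and 6987 to 9609 in ABC. In FO they were 209 to 5564 and 117.5 to 3234, and on all B1 arrays 35.3 to 929 and 14.7 to 418. By limma neither was called between ABC and FO (3.45 ± 1.12, adjusted p = 0.0884, and 3.80 ± 1.15, adjusted p = 0.0686). No macrophage marker lay under the median intensity on every old or young B1 array, 1 of 17 did so in ABC and 6 in FO. Of the 11 neutrophil markers 9 did so in old B1, 8 in young B1, 4 in FO and 1 in ABC. The part of such cells in the Fc receptor values was not tested.

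Within groups the 4 activating genes and the marker sums had no one order. FO replicate 3 had the highest macrophage sum of its group (3215, against 1259 and 1664) and also the highest neutrophil sum (10046, against 489 and 2041), and it read highest there for Fcer1g, Fcgr1, Fcgr3 and Fcgr4. The young B1 array with the highest macrophage sum read highest for these 4 genes too. In ABC the array with the highest macrophage sum, replicate 1, read lowest for Fcer1g and was highest only for Fcgr4. In old B1 the macrophage sums of replicates 1 and 2 were close (41091 and 39976). Replicate 1 was highest there for Fcer1g and Fcgr1, and replicate 2 for Fcgr3. Replicate 3, with the lowest sum (18148), was lowest for Fcer1g (376), Fcgr1 (30.02) and Fcgr3 (242) and highest for Fcgr4. On replicates 1 and 2 those read 1486 and 1410.1 for Fcer1g, 125 and 118 for Fcgr1, and 904 and 1162 for Fcgr3. The make-up of the sum also differed between groups: of the genes on the macrophage list, Saa3 differed by -7.45 ± 0.37 (adjusted p = 1.1e-06) and Prg4 by -5.44 ± 0.73 (adjusted p = 7.2e-04) between ABC and old B1. These are 2 of the 4 called lower in ABC. Adgre1, the 1 called higher in ABC, differed by 2.16 ± 0.40 (adjusted p = 0.0052).

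**Figure D4:**
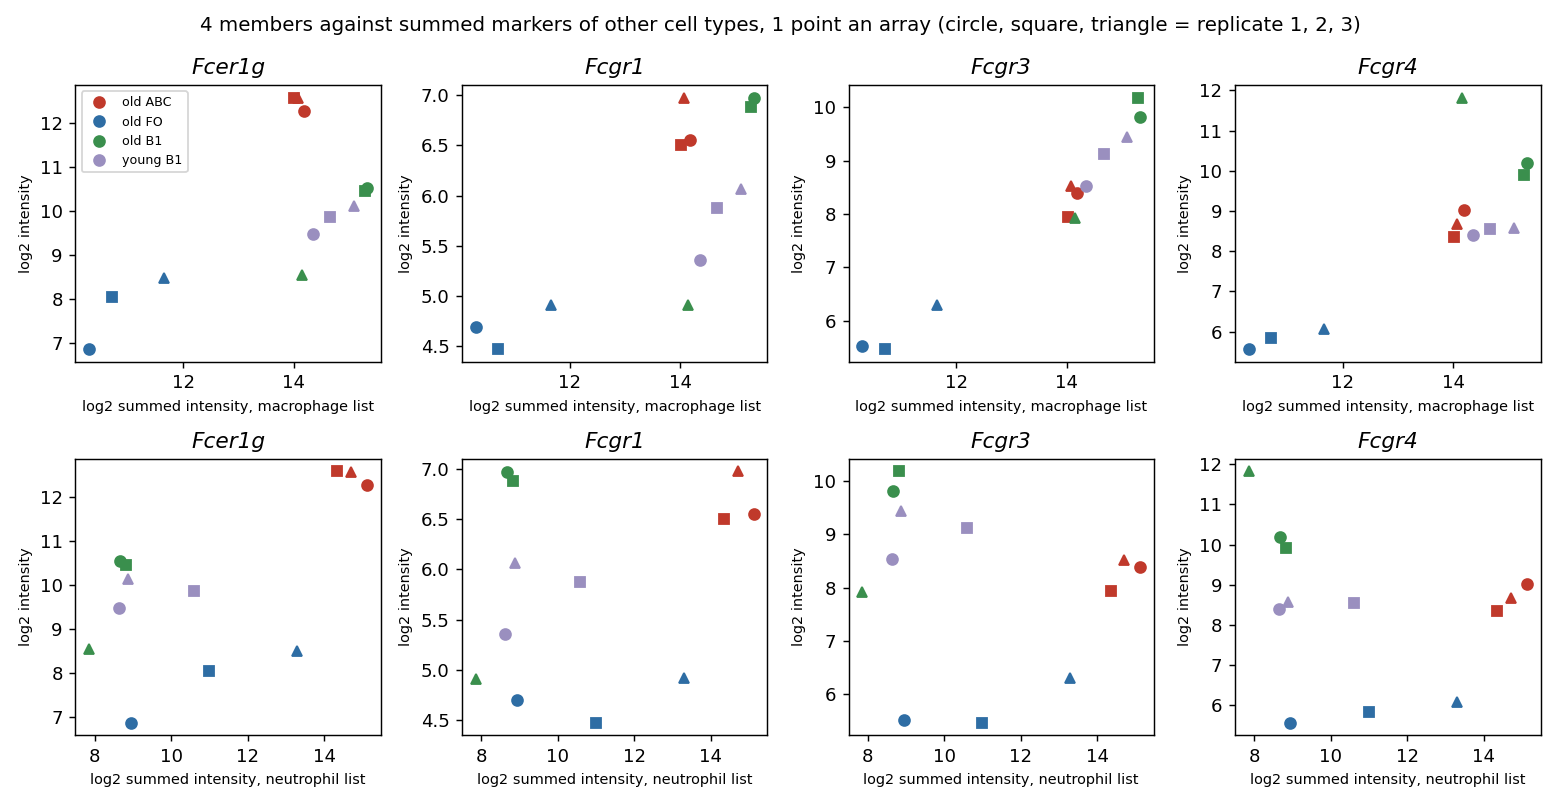
Log2 intensity of Fcer1g, Fcgr1, Fcgr3 and Fcgr4 (vertical axes) against the log2 summed intensity of 17 macrophage markers (upper row) or 11 neutrophil markers (lower row), 1 point an array, coloured by group. FO arrays lie lowest in the macrophage sum (1259 to 3215) and in Fcgr3, the ABC arrays stand above the others for Fcer1g and old B1 replicate 3 stands above the others for Fcgr4.

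The genes whose profile over the 12 arrays was most like that of each gene were found from the root mean square difference in log2 after each gene's own mean was taken off. This is a description of these arrays. For Fcer1g they were Adgre1, the macrophage marker F4/80 (0.37), Pik3r6, a regulatory subunit of PI3 kinase (0.38), and Nt5e, the ectonucleotidase CD73 (0.45), where the spread of Fcer1g itself was 1.76. For Fcgr3 they were C5ar1, the receptor of complement C5a (0.26), Nupr1 (0.36) and Ifitm3, an interferon-induced membrane protein (0.37), at a spread of 1.51. Those nearest to Fcgr4 were Ckb, a creatine kinase (0.51), Afdn (0.52) and Met, the receptor of hepatocyte growth factor (0.59), at a spread of 1.77. Those nearest to Fcrl1 were Il21r, a cytokine receptor (0.25), Nck2, an adaptor (0.26), and Chchd10, a mitochondrial protein (0.27), at a spread of 1.13. Those nearest to Fcgr1 were Mapre3 (0.27), Rabl2 (0.32) and Pdlim4 (0.33), at a spread of 0.90. Fcgr2b and Fcrla varied less than 2-fold between group means on the probe set used and were not matched, although Fcgr2b varied more on its 3 other bright probe sets.

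Other receptors of antibody split between the groups. Of 10 measured genes, ABC were higher than FO in 2 and lower in 1, and 7 were not called (median -0.16, against -0.033 for all genes). The 2 were Fcer1a (4.27 ± 0.73, adjusted p = 0.0037) and Ms4a2 (2.27 ± 0.46, adjusted p = 0.00935), the alpha and beta chains of the high-affinity IgE receptor, which shares the Fcer1g chain. In FO their mean log2 levels were 2.72 and 3.69, below or at the 25th percentile of all probe sets (3.68 to 3.82 on the FO arrays), so the sizes of these differences rest on FO values near the floor of the arrays. Both also stand on the mast cell list, and both were higher in old B1 than in FO (4.18 ± 0.73 and 2.33 ± 0.46, adjusted p = 0.00289 and 0.00537). The 1 was Fcer2a, the low-affinity IgE receptor CD23, at -3.23 ± 0.78 (adjusted p = 0.0251), a call lost in 5 of 13 fits that left out arrays (adjusted p up to 0.0975). These were the fits without ABC replicate 2, ABC replicate 3 or any 1 of the FO replicates. Old B1 against FO gave 2 higher and 3 lower, Fcer2a (-5.12 ± 0.78, adjusted p = 0.00125) and Fcmr, the IgM receptor (-0.62 ± 0.14, adjusted p = 0.0128), among the lower. Fcmr was also the 1 gene called between ABC and old B1, higher in ABC by 0.63 ± 0.14 (adjusted p = 0.0137).

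Of 13 measured kinases, adaptors and chains of activating receptors, 5 were higher in ABC than in FO, 0 lower and 8 not called (median 0.27, with 9.96% of all genes called). Tyrobp, the adaptor DAP12 that works like the gamma chain, was higher by 1.46 ± 0.14 in ABC (adjusted p = 7.1e-05) and by 1.40 ± 0.14 in old B1 (adjusted p = 5.7e-05) than in FO. Syk, the kinase that docks on activation motifs, was higher by 0.69 ± 0.10 and 0.54 ± 0.10 (adjusted p = 0.0016 and 0.00471). The adaptors Lcp2 (SLP-76; 3.06 ± 0.49) and Lat2 (0.73 ± 0.13) were higher in ABC than in FO. Against old B1 4 of the 13 were higher in ABC and 0 lower, namely Lat2 (1.31 ± 0.13), Lcp2 (2.72 ± 0.49) and the Src-family kinases Fyn (1.91 ± 0.39) and Fgr (1.89 ± 0.39). Old B1 against FO gave 3 higher and 2 lower, with the adaptor Gab2 at 3.63 ± 0.48 and Fyn at -2.14 ± 0.39. The size of the Gab2 difference rests on FO values near the floor, at a mean log2 level of 3.67.

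Of 9 phosphatases and adaptors that inhibitory receptors recruit, 3 were higher in ABC than in FO, 0 lower and 6 not called (median 0.26, with 9.96% of all genes called). They were Inppl1, the lipid phosphatase SHIP2 (1.41 ± 0.17, adjusted p = 3.7e-04), Ptpn11, the phosphatase SHP2 (0.52 ± 0.10, adjusted p = 0.00707), and Dok3, an adaptor (0.43 ± 0.11, adjusted p = 0.0311), whose call was lost in 7 of 13 fits that left out arrays, those without any 1 of the ABC or FO arrays or without young B1 replicate 3. Inpp5d, or SHIP1, the phosphatase that Fcgr2b recruits, was not called in any comparison and ran from 3230.0 to 4207 over the 12 arrays. Old B1 against FO gave 3 higher and 1 lower (16.4% of all genes called), and ABC against old B1 3 higher and 0 lower (12.8%). Inppl1 was also higher in old B1 than in FO (1.91 ± 0.17, adjusted p = 3.0e-05), and Ptpn6, the phosphatase SHP1, was lower there (-0.53 ± 0.10, adjusted p = 0.00382) and higher in ABC than in old B1 (0.56 ± 0.10, adjusted p = 0.00356). Of 9 complement receptors and regulators, the other receptors for coated antigen, 4 were higher and 3 lower in ABC than in FO. The higher ones included Itgam (3.41 ± 0.31) and Itgax (5.92 ± 0.63), integrin chains of complement receptors, and the lower ones Cd55, a complement regulator (-1.80 ± 0.19), and Cr2, a receptor for C3 fragments (-2.86 ± 0.40). In old B1 against FO 4 of the 9 were higher and 2 lower, and in ABC against old B1 3 were higher and 3 lower. By limma 0 genes of these 4 lists were called between old and young B1, and 3 had an unadjusted p under 0.05.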

How the data were processed

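Each array's column, as deposited, holds the authors' linear intensity for every probe set. RMA and affy are named in the submitters' processing notes, without version, order or settings. The log2 of each value was taken. Of 45037 probe sets, 34945 carried 1 gene symbol, 932 several and 9160 none, by GEO's platform annotation. For each of 18193 genes the probe set with the highest mean was used, taken from those with 1 symbol. The 4 groups of 3 arrays entered 1 model (lmFit, then eBayes, from limma 3.58.1 under R 4.3.3, with 8 residual degrees of freedom), with Benjamini-Hochberg adjustment over all genes of a comparison. The procedure was tested on simulated data. Since the labels do not say that replicates are separate mice, p-values reflect only spread between these samples, which may be technical, and the number of arrays limits the precision. The genes, lists and alternatives were chosen with earlier results of these data known, those that left out 2 arrays included. Genes named from a list are the up to 4 called ones of lowest p in a comparison, and 3 genes of most similar profile are named for each gene that varied at least 2-fold. Of the cell type lists, those of macrophages and neutrophils are named by their 2 brightest markers. Further macrophage markers, and those named from the other cell type lists, were chosen with their values known, most of them for being called. Inpp5d was named after its values were seen. NK, dendritic and T cell lists are given in the closing section. Sequences and plots were handled in Python 3.11.15 with matplotlib 3.10.9.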

Additional observations from a re-analysis of the deposited data

How the results depend on the processing

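Each result was recomputed under 25 alternatives: the variance prior, weights and blocks in limma, fewer groups in the fit, 2 further normalizations, dropping dim genes, other choices of probe set, a threshold of 0.01, and leaving out arrays. Of 28 differences (7 genes in 4 comparisons), 16 kept direction and side of the threshold throughout. The count of genes called in old B1 against FO was 3 in place of 5 in the fit of these groups alone and at an adjusted p under 0.01, and 3 to 5 with 1 array left out (3 without FO replicate 1, old B1 replicate 1 or old B1 replicate 2). Between old and young B1 it was 1 with array weights and 2 without the 2 arrays that stand apart in place of 0, and 0 to 2 with 1 array left out (2 without old B1 replicate 3, 1 without old B1 replicate 2). The cause was not tested. Counts in the other comparisons stayed within 1.5 times, at 5 to 6 for ABC against FO and 3 to 5 for ABC against old B1.

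Signs changed only for differences that were not called. Fcrla in ABC against FO was -0.028 when centred on the 75th percentile and -0.050 to 0.068 with 1 array left out. Fcgr1 in ABC against old B1 was -0.23 with array weights and -0.25 without the 2 arrays, and -0.25 (without old B1 replicate 3) to 0.78 with 1 array left out. With 1 array left out, Fcgr2b in old B1 against FO was -0.080 to 0.17, and between old and young B1 Fcer1g was -0.32 to 0.68 and Fcgr3 -0.16 to 0.97.

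The replicate block left 6, 4, 4 and 0 genes called in ABC against FO, ABC against old B1, old B1 against FO and old against young B1, and it ended only the call of Fcgr1 in old B1 against FO. Same-numbered arrays did not deviate together (correlations from -0.391 to 0.228), so the numbers were not taken as pairs.

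The genes called in all numbered 1812 in ABC against FO, and 1267 to 3961 over the fits at the same threshold and over the same kind of genes. The ranges were 1062 to 3592 around 2334 for ABC against old B1, 1455 to 5001 around 2988 for old B1 against FO, and 2 to 316 around 53 for old against young B1, lowest for the groups alone in the last 3 and highest with array weights in all 4. With every probe set tested 2763, 3820 and 5167 were called in the first 3, and at an adjusted p under 0.01 990, 1281, 1706 and 15 genes.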

Other observations

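Markers of other lymphocytes and of dendritic cells were measured beside the Fc receptors, since NK and dendritic cells carry some of them. Of 6 measured NK cell markers, 2 were higher in ABC than in FO and 4 were not called. They were Gzma, a granzyme (4.22 ± 0.84, adjusted p = 0.00874), and Ncr1, an activating receptor (1.36 ± 0.28, adjusted p = 0.0107). Ncr1 was dim, with mean log2 levels of 4.44 in ABC and 3.08 in FO. The latter is below the 25th percentile of the FO arrays (3.68 to 3.82). Prf1, the brightest of the 6 over the 12 arrays, did not pass the test (-0.050 ± 0.17, adjusted p = 0.931). The summed intensity was 881 to 2160.1 in ABC and 472 to 626 in FO. Of 8 dendritic cell markers, 3 were higher in ABC than in FO, led by Itgae, an integrin chain (2.94 ± 0.42, adjusted p = 0.00127), and 5 were not called. The 5 were Batf3 (1.35, adjusted p = 0.0539), Cd209a (1.97, 0.213), Flt3 (-0.52, 0.708), Ccr7 (-0.51, 0.133) and Xcr1 (-0.023, 0.959). In ABC against old B1 4 were higher and 4 not called. Against FO, Itgae kept its call in all 13 fits that left out arrays, while Zbtb46 lost it in 9 (adjusted p up to 0.148; without any 1 of the ABC, FO or young B1 arrays) and Siglech in 3 (up to 0.074; without ABC replicate 1, FO replicate 1 or FO replicate 2). Against old B1, Siglech lost it in 7 (up to 0.123; without ABC replicate 1 or 2, old B1 replicate 1 or 3, young B1 replicate 2 or 3, or the 2 arrays that stand apart) and Zbtb46 in 1, without ABC replicate 3 (0.0574). The 1 dendritic cell marker called between old and young B1 was Ccr7, a homing receptor that B cells also express, at -1.20 ± 0.19 (adjusted p = 0.0307), a call lost in 7 of 13 fits that left out arrays (adjusted p up to 0.144; without ABC replicate 1 or 3, FO replicate 1, old B1 replicate 1 or any 1 of the young B1 arrays). Of 7 T cell markers, 1 was higher in ABC than in FO, Cd3g (2.25 ± 0.43, adjusted p = 0.00732). Cd3e, the next in brightness, did not pass the test (0.29 ± 0.65, adjusted p = 0.889). The part of NK, dendritic and T cells in the Fc receptor values was not tested.

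The sum of the 9 mast cell markers, 2 of which are chains of the IgE receptor, was 10281, 2368 and 10259 on the young B1 arrays and 5101, 3977 and 2098 on the old B1 arrays. On the same arrays Fcer1g was 711, 936 and 1119 in young B1 and 1486, 1410.1 and 376 in old B1, which is the order of the sum in old B1 and not in young B1.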
